A study of Homo sapiens with 16 samples.

Results

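FOXO1 and FOXO3, with 8 genes of autophagy and mitochondrial clearance (BNIP3L, SQSTM1, ULK1, WIPI1, ATG7, GABARAPL1, GABARAPL2 and MAP1LC3B), were followed across 4 lists of chromatin immunoprecipitation (ChIP-seq) regions. They are 10 named genes out of the 19343 protein-coding genes of the deposited annotation. These genes were chosen with earlier results of these data known, so their counts beside the shares of all genes are descriptions only. A region was placed by its summit, or by its middle base in lists without summits. It belonged to the promoter up to 1 kb from an annotated start, to the body elsewhere in the gene, and to the flank up to 20 kb beyond either end.

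BCL11A and ZBTB7A are zinc-finger repressors of the fetal γ-globin genes, and the study mapped where they bind in erythroid cells. BCL11A was mapped with an antibody to V5 in HUDEP-2 cells, an immortalised line of human erythroid progenitors, that carried BCL11A-ER-V5 and were given 1e-07 M 4-hydroxytamoxifen for 24 h (2 ChIP and 2 control libraries). ZBTB7A was mapped with ZBTB7A antibodies in K562 erythroleukaemia cells (4 ChIP and 4 control libraries, no treatment listed). It was also mapped in ΔGγ HUDEP-2 cells, which lack the Gγ-globin gene, either with the 195C>G change in the γ-globin promoter or with the WT promoter (1 ChIP and 1 control library each). The ΔGγ deletion is thus present in both the 195C>G and the WT cells, and the labels do not say whether either was 1 clone. The tagged BCL11A was an induced fusion protein, so its regions are those of the introduced protein. HUDEP-2 cells were kept in medium with SCF, EPO, dexamethasone and doxycycline, and K562 cells in serum. The controls are titled input, while their antibody label names an immunoglobulin.

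Red blood cells lose their nucleus, mitochondria and other organelles as they mature. FOXO3 is a forkhead transcription factor known to drive genes of late erythroid maturation, and BNIP3L (also called NIX) is the receptor on mitochondria through which reticulocytes clear them. Autophagy begins with the ULK1 kinase, continues with WIPI proteins on the forming membrane, and depends on ATG7, which activates ATG8 proteins (MAP1LC3B, GABARAPL1 and GABARAPL2 here) for attachment to lipid. SQSTM1 (p62) carries tagged cargo to those ATG8 proteins.

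The lists held 12911 BCL11A, 17331 K562, 18784 195C>G and 36435 WT regions. The BCL11A and K562 lists each pool their replicates, and the other lists come from 1 library each, so replicate error is unknown and no comparison has a p-value. Read depth is unknown for every library. Scores and signals are the authors' own values per region and were compared only within a list. Rank 1 is the strongest region, and the K562 list, which has no values, was ranked by its file order. Ranks in lists of different lengths do not measure a change in binding. The lists hold no expression values, so the cell types could not be checked against marker genes.

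The part of 4 promoters that the RefSeq promoter table covers is shown first, because the regions found there differ between the lists. Letters run 5′ to 3′ on the gene's strand and stop before any annotated exon. Capitals mark GACCC, a core recognised by ZBTB7A, or its reverse complement GGGTC. GABARAPL2 had a ZBTB7A region there in K562, 195C>G and WT, and the letters shown lie inside its WT region. SQSTM1, at the third of its annotated starts, had one in K562 but not in 195C>G or WT, and the letters shown lie inside the K562 region. ATG7 had one in K562 and WT, and the letters lie inside its K562 region. The FOXO3 letters begin after the end of its strongest BCL11A region and run up to its first start.
GABARAPL2 (GRCh38.p14 chr16:75566129-75566350, plus strand): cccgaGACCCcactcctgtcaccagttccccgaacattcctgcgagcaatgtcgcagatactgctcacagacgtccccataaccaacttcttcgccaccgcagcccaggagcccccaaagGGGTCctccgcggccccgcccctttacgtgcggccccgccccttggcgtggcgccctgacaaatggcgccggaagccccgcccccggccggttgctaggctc
SQSTM1 (GRCh38.p14 chr5:179820655-179820841, plus strand): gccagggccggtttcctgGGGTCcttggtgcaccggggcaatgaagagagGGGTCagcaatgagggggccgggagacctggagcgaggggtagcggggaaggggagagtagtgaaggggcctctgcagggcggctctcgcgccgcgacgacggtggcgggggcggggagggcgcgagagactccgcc
ATG7 (GRCh38.p14 chr3:11272147-11272323, plus strand): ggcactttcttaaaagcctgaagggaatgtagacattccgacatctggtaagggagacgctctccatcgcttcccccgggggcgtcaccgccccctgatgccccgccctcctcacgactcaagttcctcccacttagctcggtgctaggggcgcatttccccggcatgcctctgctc
FOXO3 (GRCh38.p14 chr6:108559575-108559822, plus strand): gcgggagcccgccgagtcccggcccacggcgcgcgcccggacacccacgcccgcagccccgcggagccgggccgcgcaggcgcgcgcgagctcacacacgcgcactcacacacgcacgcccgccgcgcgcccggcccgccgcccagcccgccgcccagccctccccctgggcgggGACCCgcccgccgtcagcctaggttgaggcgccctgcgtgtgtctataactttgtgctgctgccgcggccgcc

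GACCC occurred 2 times in the GABARAPL2 stretch, 2 times in the SQSTM1 stretch, 1 time in the FOXO3 stretch and 0 times in the ATG7 stretch. Over whole RefSeq promoter windows of 300 bases, 9 of the 10 genes matched with 14 windows. GACCC on either strand was present in 6 of these 14 windows (42.9%), against 51.6% of 20620 windows of protein-coding genes. TGACCA, a core recognised by BCL11A, was present in 1 of the 14 windows (7.14%), that of MAP1LC3B, against 9.21% of all. That window begins at 87392086 and the BCL11A region of MAP1LC3B ends at 87392087, so the match does not lie inside the region. The FOXO core GTAAACA, the GATA cores AGATAA and TGATAA, and the E-box CACGTG were in none of the 14 windows, against 2.87%, 7.93%, 5.61% and 8.36% of all windows. GACCC and TGACCA share the letters GACC but differ in the letter after them. The GATA cores share GATAA but differ in their first letter. A match is a description of the letters and not of a bound site.

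BCL11A had a promoter region at 4 of the 10 genes (FOXO1, FOXO3, SQSTM1 and MAP1LC3B), where 24.4% of protein-coding genes had one. ZBTB7A in K562 had one at 8, all but WIPI1 and GABARAPL1 (33.1% of genes). ZBTB7A had one at 4 in 195C>G cells (BNIP3L, ULK1, GABARAPL2 and MAP1LC3B; 29.1% of genes) and at 7 in WT cells, which were these with ATG7, GABARAPL1 and WIPI1 (44.9% of genes). No gene of the 10 lacked a promoter region in every list, against 45.1% of all genes. MAP1LC3B was the 1 gene with a promoter region in all 4 lists, against 9.96% of all genes. Among genes with a promoter region, the best one had a median rank at 6.42% of the BCL11A list for the 4 genes, against 44.0% for all such genes. In K562 this was 26.7% against 37.9%, in 195C>G 12.2% against 40.0%, and in WT 4.91% against 28.5%. The BCL11A values were 0.937% for FOXO3, 3.99% for SQSTM1, 8.85% for MAP1LC3B and 70.3% for FOXO1. Genes with several starts, such as SQSTM1 (3) and FOXO3 (2), have more chances of a good best rank.

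FOXO1, FOXO3 and SQSTM1 had promoter regions for BCL11A and for ZBTB7A in K562, and none for ZBTB7A in either HUDEP-2 list. That combination was seen in 2.56% of all genes. With a 2 kb window FOXO1 left it, through WT regions 1341 bp after and 1845 bp before its start. BNIP3L, ULK1 and GABARAPL2 had promoter regions in all 3 ZBTB7A lists and none for BCL11A. With a 2 kb window ULK1 gained a BCL11A region, 1548 bp after its start. With MAP1LC3B, 4 of the 10 genes were in all 3 ZBTB7A lists, against 19.8% of all genes. That count depends on the starts used, since with 1 RefSeq start per gene only 3 genes had a 195C>G promoter region. Of the 4 genes with a BCL11A promoter region, 1 (MAP1LC3B) also had one in 195C>G and the same 1 in WT, while of all BCL11A genes 56.6% had one in 195C>G and 76.9% in WT. In K562 all 4 had one, against 60.9% of all BCL11A genes.

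**Figure D1:**
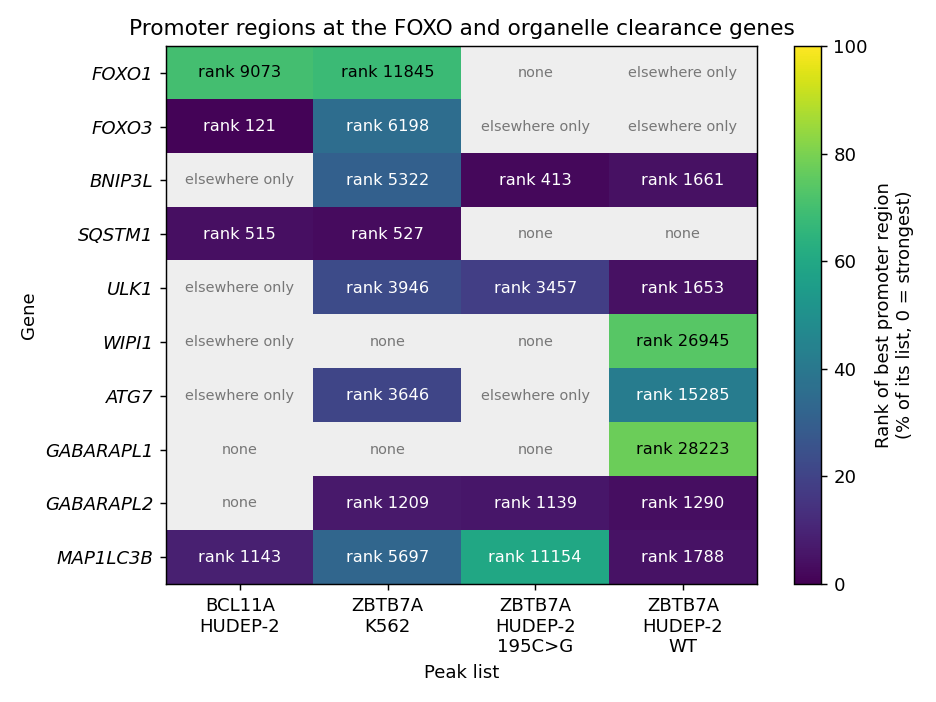
Rank of the best promoter region of each gene (rows) in each list (columns), with colour giving that rank as a percentage of its own list. Cells marked elsewhere only had a region in the body or flank but none at the promoter. FOXO3 and SQSTM1 stood at ranks 121 and 515 for BCL11A and had no promoter region in the 195C>G or WT columns, and GABARAPL2 stood at ranks 1209, 1139 and 1290 in the K562, 195C>G and WT columns.

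Promoter GC content was set beside this division. The highest-GC RefSeq window held 78.3% G and C for FOXO3, 77.0% for SQSTM1 and 68.0% for FOXO1. It held 69.0% for GABARAPL2, 75.7% for MAP1LC3B and 78.3% for ULK1. Of the genes with a promoter region in WT and not in 195C>G, WIPI1 had 79.7%, ATG7 65.0% and GABARAPL1 51.7%. Genes bound by BCL11A and in K562 but in neither HUDEP-2 ZBTB7A list had a median of 72.7% (407 of 496 genes with a window). Genes in all 4 lists had 69.7% (1631 of 1926), and all genes had 64.7% (15274 of 19343). By list, genes with a promoter region had 69.3% in BCL11A, 68.3% in K562, 68.3% in 195C>G and 67.7% in WT. The part of GC content in the absent regions was not tested. The lists were also made differently: K562 and BCL11A regions were filtered over replicates, and 195C>G and WT regions came from SPP in 1 library each, so cell line and list making cannot be told apart.

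The FOXO genes encode transcription factors and differed in the rank of their regions. FOXO3 spans 125 kb of chromosome 6 (108559823 to 108684768, hg38, plus strand) and has 2 annotated starts. Its best BCL11A region, from 108559060 to 108559504, had a score of 395 and rank 121. It lay 541 bp before the first start, outside any exon, in the first 0.937% of the list. A second BCL11A region, at rank 3932 with a score of 44.8, lay 21 bp after the second start, in the 5′ untranslated region. Another, at rank 10844, lay 255 bp after the same start. Weaker ones lay 1206 bp before the first start (rank 12540) and 2962 bp into the gene (rank 12736).

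ZBTB7A in K562 had regions at the same 4 places around the FOXO3 starts. Their ranks were 1827 at 1442 bp before the first start, 6198 at 494 bp before it, 9686 at 1 bp before the second start and 14248 at 3063 bp into the gene. All 5 K562 regions of FOXO3 were overlapped by a BCL11A region, where ranks alone gave 1.11, and 6 of 7 BCL11A regions by a K562 region, where ranks gave 2.1. By file order in K562 and by score for BCL11A, the best-ranked places did not match: the K562 region of best rank met the BCL11A region of rank 12540. Strength in K562 itself was not measured.

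In HUDEP-2 cells, ZBTB7A had no region at the FOXO3 starts of the deposited annotation. RefSeq lists a further start inside the gene, at 108588773, which a weak WT region covered (rank 33167). The 195C>G list held 2 FOXO3 regions, 15.1 kb and 74.8 kb into the gene (ranks 9419 and 18765, signals 39.9 and 25.7). The WT list held 8, of which 7 lay in the body and 1 in the upstream flank. The 7 body regions lay between 16.3 and 46.5 kb into the gene, all in intron 2, as did both 195C>G regions. The best, from 108598190 to 108598833, had a signal of 36.4 and rank 10504, and overlapped a K562 region (rank 9448) and a BCL11A region (rank 8677). None of the 195C>G and WT regions of FOXO3 overlapped each other. The body of FOXO3 thus held 1.6 regions per 100 kb in 195C>G and 5.6 in WT, against 0.467 and 0.93 over all gene bodies.

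FOXO1 lies on chromosome 13 (40555664 to 40666597, hg38, minus strand) and encodes a close relative of FOXO3. Its BCL11A region lay 385 bp after the start, in the coding part of exon 1, with a score of 20.9 and rank 9073. In K562 it had a region 203 bp before the start at rank 11845, which did not overlap the BCL11A region. A K562 region at rank 14024, 1844 bp before the start, and a WT region at rank 28412, 1845 bp before it, overlapped each other. WT had 2 more FOXO1 regions, at ranks 16869 and 29743, and 195C>G had none within 20 kb, with the nearest 105 kb from the start.

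SQSTM1 and BNIP3L encode the cargo and mitochondrial receptors, and differed in which lists held their regions. SQSTM1 (chromosome 5, 179806388 to 179838077, hg38, plus strand) has 3 annotated starts and had 8 BCL11A regions, more than any other gene of the 10. The strongest, from 179821341 to 179821660, had a score of 181 and rank 515. It lay 658 bp after the third start, in an intron. Others stood at ranks 4417 and 8598 near the second start, both also within 1 kb of a start of the neighbouring gene MGAT4B, and at rank 12793 before the third. A further BCL11A pair, 13497 and 10145 bp before the gene, stood at ranks 1762 and 3704.

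ZBTB7A in K562 had 3 SQSTM1 regions. The best stood at rank 527, from 179820381 to 179820958, 173 bp before the third start, and it covers the SQSTM1 letters shown above. It lay between BCL11A regions on either side and overlapped neither. In intron 2 a K562 region at rank 4531 overlapped a BCL11A region at rank 11393, the 1 place where both factors met at this gene. The 195C>G and WT lists had no region in SQSTM1 or within 20 kb, and the nearest to any of its starts lay 38.2 kb away in 195C>G and 37.8 kb away in WT. SQSTM1 was the 1 gene of the 10 with regions in this span for BCL11A and K562 and none in either HUDEP-2 ZBTB7A list, against 3.19% of all genes and 8.29% of genes with both.

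BNIP3L (chromosome 8, 26383007 to 26413129, hg38, plus strand) has 2 annotated starts and no BCL11A promoter region. Its strongest ZBTB7A region lay after the second start, over a coding exon. In K562 it stood at rank 5322, 911 bp after that start. In 195C>G it ran from 26391052 to 26391445 with a signal of 136 and rank 413, and in WT from 26391095 to 26391471 with a signal of 87.0 and rank 1661. The summits lay 873 bp and 909 bp after that start in 195C>G and WT. At the first start, 195C>G had a region at rank 10627 and WT had overlapping ones at ranks 18339 and 20599. BCL11A met ZBTB7A 18.6 kb upstream, where BCL11A stood at rank 4342 with a score of 41.4, 195C>G at rank 5374 and WT at rank 8112, with no K562 region.

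**Figure D2:**
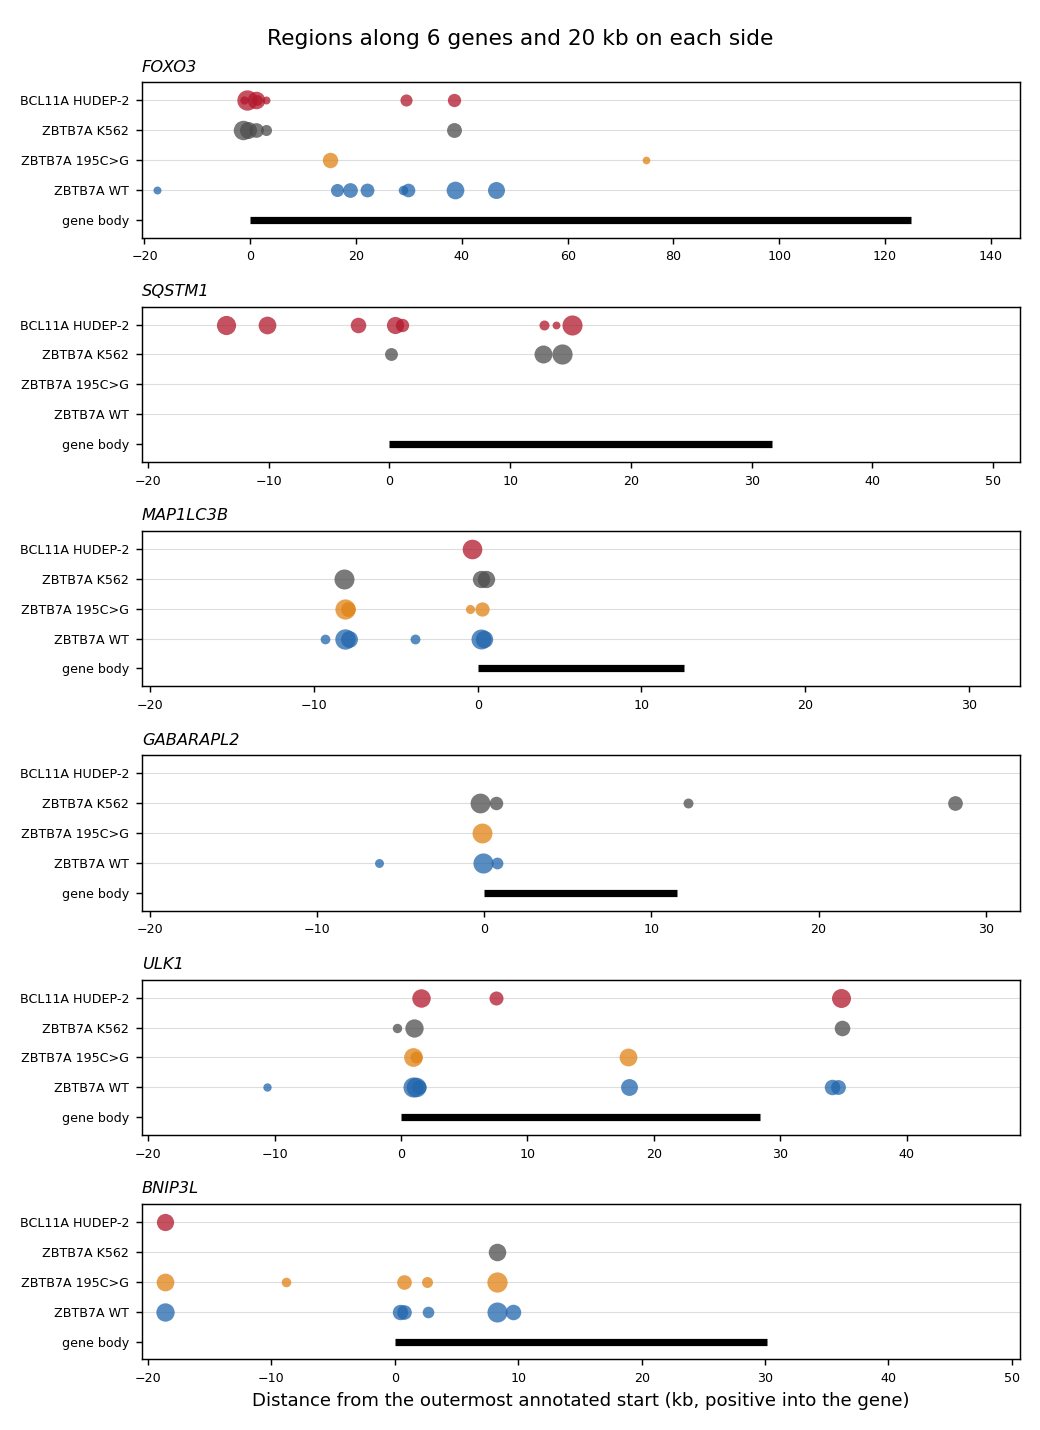
Regions of each list (rows) along 6 genes, by distance of the summit or midpoint from the outermost start in kb, with larger points for better ranks within a list and a black bar for the gene. At FOXO3 the BCL11A and K562 points gather at the starts while inside the gene the 195C>G points begin at 15.1 kb and the WT points at 16.3 kb, with 1 further WT point upstream, and SQSTM1 has points in the BCL11A and K562 rows only.

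ULK1, the kinase that starts autophagy, had its best-ranked ZBTB7A regions just inside the gene. It lies on chromosome 12 (131894734 to 131923162, hg38, plus strand). A ZBTB7A region lay 995 bp after the start in K562 (rank 3946), 952 bp after it in 195C>G (rank 3457, signal 65.9) and 982 bp after it in WT (rank 1653, signal 87.1). These 3 only just fell inside the 1 kb limit, and further regions just outside it lay at 1154 bp in 195C>G and 1191 bp in WT (rank 3148, signal 67.1). BCL11A had a region at 1548 bp, in intron 3, with a score of 59.3 and rank 2731, which overlapped the WT region of rank 3148 and the 195C>G region at 1154 bp (rank 14446). Joined with their overlaps, these regions formed the 1 place at the 10 genes reached by all 4 lists. A weak K562 region lay 318 bp before the start (rank 15897), a weak WT region 10588 bp before it (rank 35305), and a BCL11A region 7488 bp into the gene (rank 7942). A further ZBTB7A place lay in intron 13, 17982 bp into the gene in 195C>G (rank 5244) and 18012 bp in WT (rank 13423).

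WIPI1 (chromosome 17), which binds phosphoinositide on forming autophagosomes, had a WT promoter region 489 bp before its start, with a signal of 19.0 and rank 26945. BCL11A had 1 region in intron 3 of WIPI1, at rank 5901 with a score of 31.8. K562 and 195C>G had none within 20 kb of it.

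ATG7 (chromosome 3), the activating enzyme for ATG8 proteins, is the longest of the 10 at 292 kb. K562 had promoter regions at ranks 3646 and 7281, and WT had overlapping ones at ranks 15285 and 16596, with signals of 28.8 and 27.3. The 195C>G list had none there. BCL11A had 1 ATG7 region, 210 kb into the gene at rank 8227, and WT 1 body region at rank 36197. ATG7 held 0.342 body regions per 100 kb in each of these lists.

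The ATG8 genes differed among themselves. GABARAPL2 (chromosome 16, 75566351 to 75577881, hg38) had a region at its promoter in every ZBTB7A list. The K562 region (rank 1209) and the WT region (rank 1290, signal 94.8) cover all the letters shown above. The 195C>G region, from 75566099 to 75566255, covers the first part of them and had rank 1139, with a summit 154 bp before the start and a signal of 101. The WT summit lay 109 bp before the start. BCL11A had no region within 20 kb of GABARAPL2, and its nearest lay 49.0 kb away. GABARAPL1 (chromosome 12) had 1 region in all the lists, a WT promoter region at rank 28223 with a signal of 18.3. Its nearest BCL11A region lay 527 kb away.

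MAP1LC3B (chromosome 16, 87392195 to 87404774, hg38) encodes LC3B, the usual marker of autophagosomes, and shares its promoter with the neighbouring gene FBXO31. BCL11A stood at rank 1143 with a score of 108, from 87391597 to 87392087, 353 bp before the start. The best-ranked ZBTB7A regions of the MAP1LC3B promoter lay after the start. In K562 this was 193 bp after it at rank 5697. In 195C>G it was 247 bp after the start at rank 11154 (signal 36.2), and in WT 198 bp at rank 1788 (signal 84.4). The BCL11A region overlapped neither the K562 nor the WT regions, and in 195C>G it overlapped a weak region at rank 17503. At another start of FBXO31, ZBTB7A had a better-ranked region, 8155 bp upstream in K562 (rank 818), 8128 bp in 195C>G (rank 507, signal 130) and 8083 bp in WT (rank 248, signal 153).

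Over all places the 10 genes had 23 BCL11A, 23 K562, 16 195C>G and 42 WT regions, 104 in all, of which 41 were promoter, 31 body, 22 upstream and 10 downstream. At least 1 region in the promoter, body or flank was found for 8 genes in BCL11A (48.5% of all genes), 8 in K562 (57.2%), 6 in 195C>G (53.3%) and 9 in WT (68.2%). A body region was found for 5 genes in BCL11A (13.8% of all genes), 2 in K562 (14.9%), 3 in 195C>G (16.8%) and 6 in WT (26.2%). These counts depend on gene length, and the 10 genes include long ones. Per 100 kb of gene body they held 1.16 BCL11A, 0.435 K562, 0.726 195C>G and 2.18 WT regions. Over all gene bodies these values were 0.34, 0.38, 0.467 and 0.93. Overlapping regions were then joined into 60 places. Of these, 38 (63.3%) were in 1 list, 14 in 2, 7 in 3 and 1 (1.67%) in all 4. Of 38003 places outside chromosome 11, 51.1% were in 1 list and 6.57% in all 4. Of the 38 places in 1 list, 18 were in WT alone, 11 in BCL11A, 6 in K562 and 3 in 195C>G. By rank, a promoter region in the strongest 10% of its list was found for 3 genes in BCL11A (2.7% of all genes), 2 in K562 (4.58%), 2 in 195C>G (3.8%) and 4 in WT (9.41%).

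BCL11A and ZBTB7A were compared within these genes, because both repress γ-globin. Of the 23 BCL11A regions, 8 (34.8%, 95% exact interval 16.4 to 57.3%) were overlapped by a K562 region, against 31.9% of all BCL11A regions. By 195C>G regions 3 were overlapped (13.0%, 2.78 to 33.6%), against 39.6% of all. By WT regions 5 were overlapped (21.7%, 7.46 to 43.7%), against 57.5% of all. Of the 23 K562 regions, 7 were overlapped by BCL11A, 6 by 195C>G and 12 by WT, against 24.1, 46.2 and 62.5% of all K562 regions. FOXO3 and SQSTM1 together hold 15 of the 23 BCL11A regions, and of these 2 were overlapped in WT and 0 in 195C>G. Regions at 1 gene are not independent, and the intervals cover counting error only.

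The next comparison asked how many ZBTB7A regions at these genes the 195C>G and WT cells share. Of the 42 WT regions at the 10 genes, 16 (38.1%, 95% exact interval 23.6 to 54.4%) were overlapped in 195C>G, against 54.3% of all WT regions and 20.7 regions given by their ranks. Some of the WT regions overlap each other, so they are not independent, and the interval covers counting error only. Of the 16 195C>G regions, 12 were overlapped in WT, against 89.3% of all. All 6 member regions in the strongest 10% of the WT list were overlapped, at BNIP3L, ULK1, GABARAPL2 and MAP1LC3B, against 96.0% of all WT regions of that rank. At BNIP3L a 195C>G region met 5 of 6 WT regions, where ranks gave 3.46. At FOXO3 0 of 8 were, where ranks gave 3.49, and at FOXO1 0 of 3, where ranks gave 1.13. WIPI1, ATG7 and GABARAPL1 had a promoter region in WT and not in 195C>G, which 16.5% of all genes share. With 1 library in each arm and lists of unequal length, a region missing in 195C>G is not shown to be lost.

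**Figure D3:**
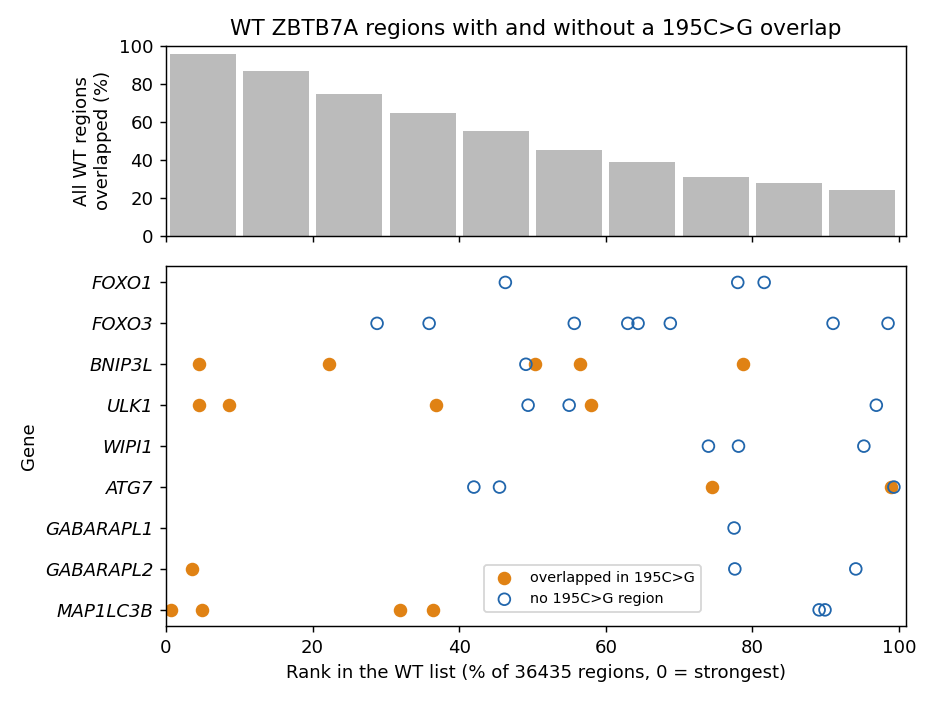
Top, share of all WT regions overlapped in 195C>G for each 10% of WT rank, with bars from 96.0% in the strongest to 23.8% in the weakest. Bottom, each WT region at the 10 genes by its rank, filled where a 195C>G region overlapped it and open where none did, with FOXO3 open throughout.

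Other genes of the pathway were taken from 7 lists with 84 genes. Of the 84, 39 had a promoter region in BCL11A, 47 in K562, 41 in 195C>G and 72 in WT (46.4, 56.0, 48.8 and 85.7%), beside the 24.4, 33.1, 29.1 and 44.9% of all genes given above. The 7 lists were chosen with earlier results of these data known, so these shares beside those of all genes are descriptions only. Expression and open chromatin of these genes were not analysed here. In all 4 lists were 14 of the 84 genes, against 9.96% of all genes, and 4 were in none, against 45.1%. WT held a promoter region at 11 of 11 genes that start autophagy, against 44.9% of all genes, and BCL11A at 2 of them, against 24.4%.

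Among FOXO relatives and upstream regulators, SGK1, a kinase that inactivates FOXO proteins, led BCL11A (rank 537) and WT (rank 1334). It stood at rank 1954 in K562 and 3356 in 195C>G. PIK3R1, the regulatory subunit of PI3 kinase, led 195C>G at rank 889, and FOXO6 led K562 at rank 274. In this list of 12, BCL11A had 4 genes (24.4% of all genes), K562 9 (33.1%), 195C>G 6 (29.1%) and WT 10 (44.9%).

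Of 12 known FOXO targets, BCL11A had 7 (24.4% of all genes), K562 8 (33.1%), 195C>G 9 (29.1%) and WT 11 (44.9%). SESN1, a stress-induced inhibitor of mTORC1, led BCL11A (rank 267) and WT (rank 134), with the BCL11A and WT regions at different starts. The WT region also lay within 1 kb of a start of CEP57L1. TXNIP, a thioredoxin inhibitor, led K562 (rank 1764), and the cell cycle inhibitor gene CDKN1B led 195C>G (rank 1891). CAT and SOD2, which encode catalase and mitochondrial superoxide dismutase, and CITED2 and CCNG2 were in all 4 lists. For SOD2 the best-ranked BCL11A region lay at another start than the best-ranked ZBTB7A regions. That BCL11A region was also within 1 kb of a start of WTAP, and those ZBTB7A regions of a start of ACAT2. CAT stood at rank 1083 in BCL11A and 605 in WT.

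Of 11 genes of initiation and nucleation, K562 had 5 (33.1% of all genes) and 195C>G 7 (29.1%). ATG14, which directs the lipid kinase of autophagy, led K562, 195C>G and WT at ranks 665, 808 and 312, and had no BCL11A promoter region. AMBRA1 led BCL11A at rank 10563. Of 19 genes of conjugation and membrane expansion, BCL11A had 10 (24.4% of all genes), K562 8 (33.1%), 195C>G 9 (29.1%) and WT 15 (44.9%). WIPI2, a paralog of WIPI1, led K562 at rank 396 and stood at 1967 in 195C>G and 1116 in WT. WDR45B led BCL11A (rank 1533). ATG12, a ubiquitin-like conjugation protein, led 195C>G (rank 1046), and the ATG8 protease gene ATG4D led WT (rank 903). ATG12 and ATG4D were in all 4 lists, and the best-ranked ATG12 regions also lay within 1 kb of a start of AP3S1.

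Of 13 cargo and mitophagy receptor genes, BCL11A had 8 (24.4% of all genes), K562 10 (33.1%), 195C>G 5 (29.1%) and WT 12 (44.9%). BCL2L13, a mitophagy receptor, led K562 at rank 79 and 195C>G at 5019. TAX1BP1, a cargo receptor, led BCL11A (rank 1460), and FKBP8 led WT (rank 2582). NBR1, CALCOCO2, PHB2 and BCL2L13 were in all 4 lists, and the best-ranked PHB2 regions also lay within 1 kb of a start of EMG1. Of 11 genes of fusion and lysosome, BCL11A had 5 (45.5% of the list, against 24.4% of all genes) and K562 4 (36.4%, against 33.1%). The 195C>G list had 4 of these (36.4%, against 29.1%) and WT 8 (72.7%, against 44.9%). RAB7A led BCL11A (rank 1337) and TFE3 led K562 (rank 3599). STX17, a fusion protein of autophagosomes, led 195C>G (rank 4574) and WT (rank 1802). Of 6 genes of red cell clearance and enucleation, BCL11A had 3 (50.0% of the list, against 24.4% of all genes) and K562 3 (50.0%, against 33.1%). The 195C>G list had 1 of them (16.7%, against 29.1%) and WT 5 (83.3%, against 44.9%). UBE2H, a ubiquitin-conjugating enzyme gene, led BCL11A (rank 3426) and K562 (rank 4096), and XPO7, a nuclear export gene, led 195C>G (rank 16188) and WT (rank 8948).

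**Figure D4:**
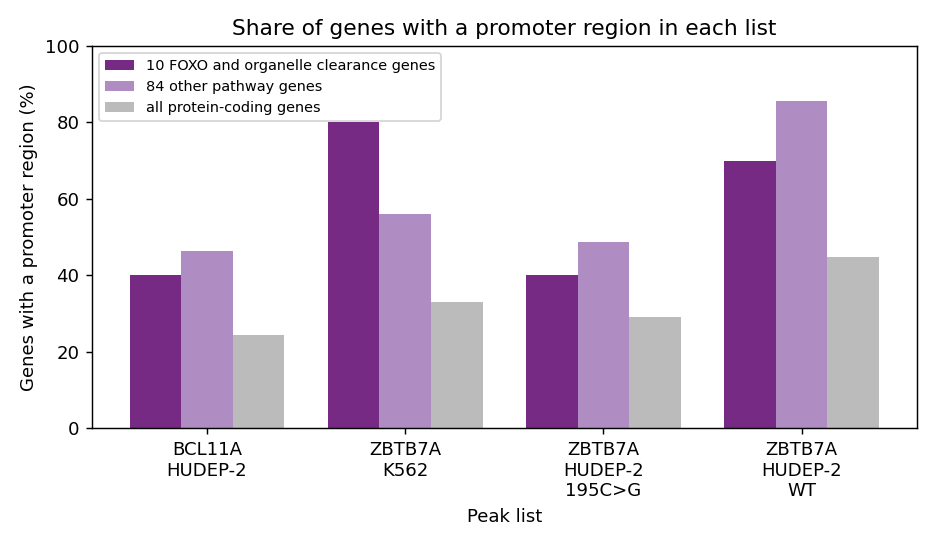
Share of genes with a promoter region in each list for the 10 genes, the 84 other pathway genes and all protein-coding genes. Bars for the 10 genes stand for 4, 8, 4 and 7 genes in BCL11A, K562, 195C>G and WT, and the bar for all genes is the lowest in each list. The 10 and the 84 genes were chosen with earlier results of these data known.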

How the data were processed

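The 16 ChIP-seq libraries were processed with tools that include Trimmomatic 0.3.2, Bowtie2 2.2.9, Bowtie, Picard and bedtools on GRCh38/hg38; the submitters' processing notes name these without their roles. The authors deposited 4 region lists. The deposited BCL11A score per region was made by the authors on peaks filtered by IDR over pooled replicates, per the file headers and names, on a scale that they do not state. The K562 list, filtered the same way, holds no values. The deposited 195C>G and WT lists, named as SPP output, give each region a signal, a false discovery rate as its −log10, and a summit. These last lists and the deposited gene annotation use an altered chromosome 11, per the labels. For the hg38 lists, chromosome 11 starts came from RefSeq (GRCh38.p14). Overlaps between builds left chromosome 11 out; none of the 10 genes lies there. Of 19343 genes, 19288 could be placed in the hg38 lists.

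Identical regions were counted once, on standard chromosomes (Python 3.11.15, pandas 2.3.3). Overlap meant at least 1 bp. The file order of the K562 list was used as its rank after seeing the data: 79.2% of its first 10% and 53.9% of its last 10% were overlapped by WT. Expected overlaps are sums of the share overlapped in each region's 10% of rank. Placing and overlap were tested on simulated regions. Genes named from the pathway lists are the best-ranked of each list and those in all 4 region lists; 1 of them is not reported here. Members and lists were chosen with earlier results of these data known. Alternatives were windows of 500 bp, 2 kb and 5 kb, flanks of 10 and 50 kb, any base in the window, 1 RefSeq start per gene, 50% reciprocal overlap and the stronger 50% of each list. Intervals are exact Clopper-Pearson.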

Additional observations from a re-analysis of the deposited data

How the results depend on the processing

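Over the alternatives tried, 68 of 76 values stayed within 1.5 times the reported count or inside the 95% interval of the reported share. The intervals of the shares are wide, so large falls in a share stayed inside them. With 50% reciprocal overlap, the share of BCL11A regions of the 10 genes overlapped fell from 34.8 to 26.1% for K562. For 195C>G it fell from 13.0 to 4.35%, and for WT from 21.7 to 8.7%. In the stronger 50% of each list these shares were 16.7, 8.33 and 16.7%. The share of WT regions overlapped in 195C>G went from 38.1 to 28.6% with reciprocal overlap and to 47.1% in the stronger 50%. With a 500 bp window, 2 of the 10 genes had a 195C>G promoter region instead of 4, since the BNIP3L and ULK1 summits lie over 500 bp from a start. With a 2 kb window, 5 genes had a BCL11A promoter region (ULK1 added) and 8 a WT one (FOXO1 added). Using 1 RefSeq start per gene left promoter regions at 4 genes in BCL11A, 7 in K562, 3 in 195C>G and 6 in WT. With the stronger 50% of each list, regions at the 10 genes numbered 12 for BCL11A, 13 in K562, 6 in 195C>G and 17 in WT, and pathway genes with a promoter region fell to 23 for BCL11A and 25 in 195C>G. With 50 kb flanks, 27 regions of 195C>G were counted. Shares of all genes at these other settings are not given here, so these counts cannot be set beside the shares reported above. Leaving out a replicate was not possible in pooled or single-library lists. No paired analysis was possible because the lists carry no values per replicate. Read depth is unknown, so regions too weak to be called cannot be told from absent ones.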

Other observations

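Some regions in the flanks of these genes lay at promoters of their neighbours. PUS1, a pseudouridine synthase gene downstream of ULK1, had a promoter region at rank 2021 in BCL11A (score 73.3), rank 8453 in K562 and ranks 18000 and 20031 in WT, with none in 195C>G. VGLL4, downstream of ATG7, had one at rank 12646 in 195C>G (signal 33.5) and at ranks 27134 and 36023 in WT. PRKAR1A, a regulatory subunit gene of protein kinase A beside WIPI1, had a WT region at rank 34690. At MGAT4B, beside SQSTM1, BCL11A had regions at ranks 4417, 6342 and 8598 and K562 at rank 12153, and neither HUDEP-2 ZBTB7A list had one within 20 kb of SQSTM1.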
